A study of Mus musculus with 24 samples.

Results

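The genes described here are 39 members of the type I interferon and antiviral response, transcripts that cells switch on when interferon binds its receptor. They were taken by gene symbol from a list drawn up with earlier results of these data known, and the rule itself uses no measured value. Of 27180 rows in the count tables, 38 carried a member's symbol in all 24 libraries, and Mx1 was matched through its Entrez identifier. All 39 passed the filter on low counts in every comparison. The study set mouse skin that carries the human papillomavirus 16 oncoprotein E7 against skin without it, as grafts and as whole ear. CD1dKOxE7 grafts came from donors with the K14E7 transgene and no CD1d, an MHC-like molecule that presents lipids to natural killer T cells. E7 grafts came from K14E7 donors and C57 grafts from C57BL/6 donors. All 3 kinds of graft were placed on C57BL/6 recipients and collected at 28 dpg or 14 dpg, read here as days post grafting. E7 and C57 ears came from K14E7 and C57BL/6 mice aged 8 weeks. Each of the 8 groups had 3 libraries. The labels do not say that libraries of a group came from separate animals, so p-values measure only the spread between these samples, which may be technical. The keratin 14 promoter drives E7 in basal keratinocytes. Recipients were C57BL/6, so their cells that enter a graft carry neither the transgene nor the CD1d deletion.

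Type I interferons signal through the receptor chains IFNAR1 and IFNAR2 and the kinases JAK1 and TYK2 to a complex that includes STAT2 and IRF9, which binds a repeated GAAA element in the promoters of its target genes. Type III interferons reach the same complex through another receptor, and many members also respond to interferon gamma, so the members do not tell the 3 interferon types apart. In skin the response restricts viruses, and keratinocytes as well as leukocytes can mount it. HPV16 E7 is best known for inactivating the retinoblastoma protein.

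Promoter windows of 7 members are shown because they carry the element and belong to genes that the results below turn on. The windows span 60 bases of the RefSeq promoter table (mouse build GRCm38.p6), written 5′ to 3′ on the gene's strand, and capitals mark 1 match to the motif, which is GAAA, any 2 bases and GAAA, or on the other strand TTTC, any 2 bases and TTTC. Isg15, Oas1a, Oas1g and Apol9a hold further matches, which overlap the marked one or lie beside it and are left in lower case.
Isg15 (chr4:156200850-156200909, minus strand): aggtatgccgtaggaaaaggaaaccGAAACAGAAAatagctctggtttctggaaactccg
Oas3 (chr5:120777700-120777759, minus strand): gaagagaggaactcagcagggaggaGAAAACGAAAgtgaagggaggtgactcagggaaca
Oas1g (chr5:120887591-120887650, minus strand): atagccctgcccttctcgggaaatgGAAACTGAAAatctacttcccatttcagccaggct
Oas1a (chr5:120907505-120907564, minus strand): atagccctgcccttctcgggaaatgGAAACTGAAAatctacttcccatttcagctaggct
Apol9a (chr15:77411099-77411158, minus strand): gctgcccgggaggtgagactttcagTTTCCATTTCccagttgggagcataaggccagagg
Trim30a (chr7:104465195-104465254, minus strand): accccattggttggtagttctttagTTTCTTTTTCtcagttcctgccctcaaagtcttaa
Stat2 (chr10:128270251-128270310, plus strand): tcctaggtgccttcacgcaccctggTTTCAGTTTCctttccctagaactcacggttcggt

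The window of Apol9b (chr15:77729016-77729075, plus strand) held the same letters as that of Apol9a in 60 of 60 positions, and those of Oas1a and Oas1g matched in 59 of 60. Of the 39 members, 30 were in the RefSeq table, with 37 promoters of 250 bases before to 50 after the start. The motif, searched on both strands, was found in 19 of these 37 promoters (51.4%), against 1131 of all 32851 promoters in the table (3.44%). The motif followed by C, a longer form that contains the first, was found in 45.9% of the member promoters and 0.819% of all. A match describes these letters and does not show binding.

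Library totals were 6550011 to 13814448 counts, and levels are given in CPM, counts scaled to a common library size with trimmed mean of M values (TMM) factors. Before these factors were applied, 3 counts equalled 0.217 to 0.458 CPM. The E7 transgene had 17.6 to 57.2 CPM in libraries labelled E7 or CD1dKOxE7, against at most 0.135 CPM in C57 libraries. At 14 dpg it had 20.4, 17.6 and 23.5 CPM in CD1dKOxE7 grafts, against 33.8, 40.6 and 38.6 CPM in E7 grafts. At 28 dpg these were 44.1, 44.4 and 18.8 CPM, against 25.5, 34.1 and 27.1 CPM. Cd1d1 kept 4.44 to 17.3 CPM in CD1dKOxE7 libraries and had 14.3 to 25.8 CPM in E7 grafts. At 14 dpg the groups overlapped, at 13.6, 17.3 and 11.4 CPM in CD1dKOxE7 grafts and 15.2, 14.3 and 16.8 CPM in E7 grafts. The deleted part of the locus is not given, so this gene checks no label. Replicate 3 of the CD1dKOxE7 grafts at 28 dpg stood apart. Its counts differed from those of the other two libraries of its group by 27.2 and 31.5 chi-square units per gene, against 5.19 between them. Its Cd1d1 level was 14.7 CPM, against 5.34 and 4.44 CPM in the other two, and member counts that rest on it are given with and without it. Replicates 2 and 3 of the E7 grafts at 14 dpg lay about as far apart, at 27.7 units. CD1dKOxE7 grafts were sequenced on another lane than E7 and C57 grafts, so lane and donor cannot be told apart, and ear libraries were on another flow cell than grafts. Skin is bulk tissue, where fewer cells of a type and less RNA per cell cannot be told apart. Markers of keratinocytes summed to 10053 to 21242 CPM in all 24 libraries.

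In both tissues the members stood higher in E7 skin than in C57 skin, and highest in CD1dKOxE7 grafts at 14 dpg. The level of a library was summarised as the median over the 39 members of the log2 difference, log2(CPM + 0.5), from the mean of the C57 ears. It was 3.26, 3.35 and 3.17 in CD1dKOxE7 grafts, 3.04, 2.81 and 2.87 in E7 grafts and 0.99, 1.08 and 1.32 in C57 grafts at 28 dpg. At 14 dpg it was 3.9, 3.64 and 4.37 in CD1dKOxE7 grafts, 2.59, 2.82 and 3.17 in E7 grafts and 0.91, 1.58 and 1.71 in C57 grafts. E7 ears stood at 1.45, 1.41 and 1.66, against 0.04, -0.08 and 0.02 in C57 ears. The 3 kinds of graft did not overlap in this median on either day, and E7 ears lay inside the range of C57 grafts at 14 dpg. Summed over the 39 members, CPM ran from 581 to 608 in C57 ears and from 5399 to 7357 in CD1dKOxE7 grafts at 14 dpg, the lowest and the highest group.

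**Figure D1:**
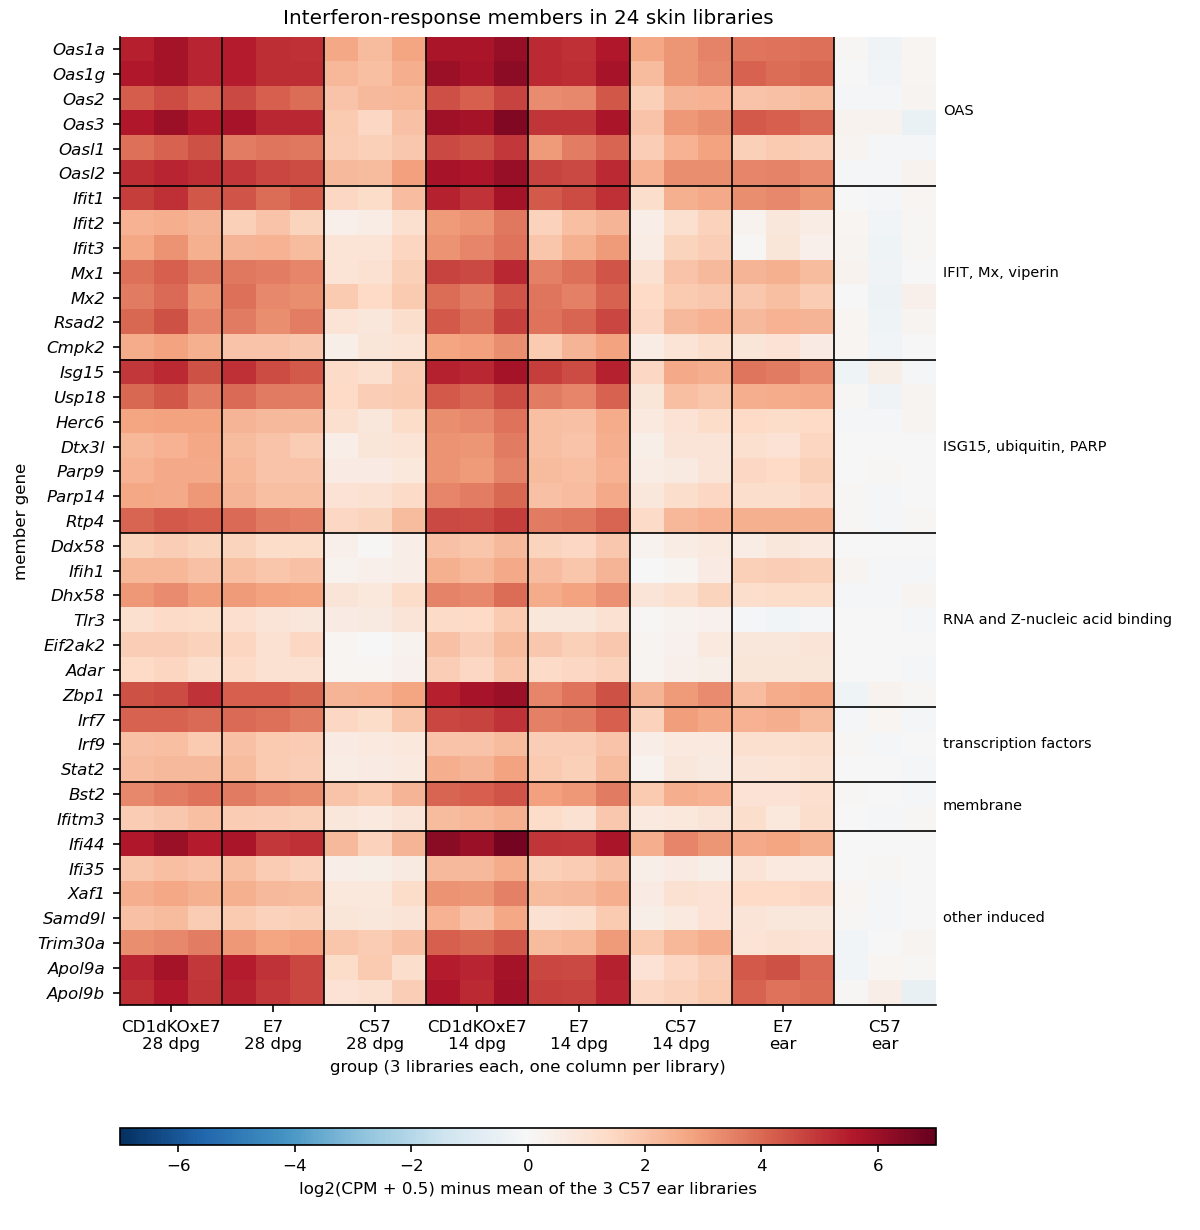
Colour gives log2(CPM + 0.5) of each of 39 members (rows, by role) in each of 24 libraries (columns, 3 per group) minus the mean of the 3 C57 ear libraries. Columns of CD1dKOxE7 and E7 grafts are the reddest, with library medians of 2.59 to 4.37, against 0.91 to 1.71 in C57 grafts and 1.41 to 1.66 in E7 ears.

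The first question was how E7 alone changed the members. Of 39 members, 38 rose in E7 grafts at 28 dpg, 38 at 14 dpg and 37 in E7 ears, each against C57 skin of the same kind (edgeR quasi-likelihood test, Benjamini-Hochberg adjusted p below 0.05 over all genes tested). The share of all genes that rose was 20.7% of 16189 at 28 dpg, 15.8% of 16189 at 14 dpg and 32.6% of 15720 in ear. The median log2 fold change of the members was 1.65, 1.5 and 1.54 in that order, and that of all genes 0.006, -0.035 and 0.002. The same numbers of members (38, 38 and 37) had every E7 library above every C57 library, as had 27.6%, 22.1% and 35.4% of all genes. The exceptions were Tlr3 at 28 dpg, Trim30a at 14 dpg, and Ifit3 and Tlr3 in ear.

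The 2',5'-oligoadenylate synthetase family, whose active enzymes sense double-stranded RNA and activate RNase L, was the class with the largest median rise in ear. All 6 genes of the family rose in all 3 settings, with median log2 fold changes of 2.52 at 28 dpg, 2.06 at 14 dpg and 3.82 in ear. Oas3 had 109, 77.1 and 76.5 CPM in E7 grafts at 28 dpg, against 6.63, 4.9 and 7.68 CPM in C57 grafts. In the 14 dpg grafts it had 62.2, 62.3 and 102 CPM with E7, against 7.33, 15.9 and 18.1 CPM without. The groups did not overlap on either day, and the log2 fold changes were 3.79 ± 0.34 (SE) and 2.47 ± 0.313. In ear Oas3 had 37.8, 35.5 and 30.5 CPM in E7, against 1.8, 1.8 and 0.948 CPM in C57, a 23-fold difference (adjusted p = 8.84e-09, edgeR). Oasl2, a family member with ubiquitin-like domains, had 71, 72.3 and 65.4 CPM in E7 ears, against 5.81, 5.48 and 7.38 CPM in C57 ears. In grafts it was already at 30.4 to 64.3 CPM without E7 and at 155 to 249 CPM with it, so its fold change was 4.89 at 28 dpg and 3.64 at 14 dpg, against 11.1 in ear. Oas1a and Oas1g share 57.6 and 54.7% of their 50-base transcript windows with other genes, mostly each other, so the split of reads between them is uncertain.

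Of the IFIT, Mx and viperin class, which bind viral RNA or block viral replication, all 7 rose in grafts on both days and 6 in ear. Ifit1, which binds RNA that lacks the host cap methylation, had 88.4, 62.3 and 77.2 CPM in E7 grafts at 28 dpg, against 10.9, 9.66 and 18 CPM in C57 grafts. In ear it had 38.4, 41.6 and 34.1 CPM in E7, against 3.52, 3.3 and 4.13 CPM in C57, a log2 fold change of 3.37 ± 0.127. Its neighbours Ifit2 and Ifit3 had much smaller ear values. Ifit2 had 12, 17.8 and 14.9 CPM in E7 ears, against 11.4, 8.71 and 10.6 CPM in C57 ears, and rose by 0.54 ± 0.158 (adjusted p = 0.0107, edgeR). That call ended without the E7 ear library at 17.8 CPM (adjusted p = 0.0526) and in the fit of all 24 libraries (0.109). The Ifit2 call at 14 dpg (0.94 ± 0.281) ended without C57 replicate 1 or 2 or E7 replicate 2 or 3 (adjusted p of 0.0513 to 0.0796). Ifit3 had 14.7, 25 and 17.8 CPM in E7 ears, against 15.9, 11.3 and 14.5 CPM in C57 ears, so the groups overlapped, and its 0.47 ± 0.204 missed the threshold (adjusted p = 0.0737, edgeR). In grafts Ifit3 rose by 1.20 ± 0.317 at 28 dpg and 1.22 ± 0.315 at 14 dpg, although 51.2% of its transcript windows are shared with Ifit3b. Cmpk2, a mitochondrial nucleotide kinase that lies beside the viperin gene Rsad2, rose by 1.28 ± 0.243, 1.55 ± 0.238 and 0.85 ± 0.162 at 28 dpg, 14 dpg and in ear. Mx1 and Mx2, dynamin-like GTPases, rose by 1.91 to 2.52. The Mx1 allele of C57BL/6 mice is known to encode no functional protein, so its transcript is a readout of induction only.

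Isg15 encodes a ubiquitin-like modifier that is joined to proteins during the response. It had 120, 82.8 and 68.6 CPM in E7 grafts at 28 dpg, against 8.42, 7.28 and 11.7 CPM in C57 grafts, and 100, 84.4 and 146 CPM in E7 grafts at 14 dpg, against 9.1, 21.3 and 19.7 CPM in C57 grafts. In ear it had 46.5, 43 and 35 CPM in E7, against 2.37, 4.13 and 2.78 CPM in C57. No group overlapped, and its fold changes of 10.1, 6.69 and 13.4 were the largest of its class in each setting. All 7 genes of the class rose in all 3 settings, with class medians of 1.5, 1.59 and 1.54 on the log2 scale. The class also holds Usp18, which removes ISG15 and dampens the receptor (2.15, 2.12 and 2.79), the ubiquitin ligase Herc6 (1.27, 1.32 and 1.40), and Rtp4 (2.00, 1.74 and 2.61). Dtx3l and Parp9, a ligase pair that works as a complex and whose exons overlap by 458 bases on opposite strands, rose by 1.25 to 1.59. Parp14, a mono-ADP-ribosyltransferase, had 154, 128 and 127 CPM in E7 grafts at 28 dpg, against 58.5, 62.3 and 73.7 CPM in C57 grafts, a 2.13-fold difference.

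Members that sense or act on RNA or Z-form nucleic acid had class medians of 1.26 at 28 dpg, 1.17 at 14 dpg and 0.87 in ear, the lowest of the 7 role classes in ear. Of these 7 genes, 6 rose in all 3 settings, among them the cytosolic RNA helicases Ifih1 (1.71 ± 0.14, 1.93 ± 0.141 and 1.69 ± 0.084), Ddx58 (1.11, 1.17 and 0.67) and Dhx58 (1.91, 1.69 and 1.31). Adar, which converts adenosine to inosine in double-stranded RNA, had 161, 134 and 131 CPM in E7 grafts at 28 dpg, against 68.4, 68.1 and 75.9 CPM in C57 grafts. In ear it had 115, 112 and 115 CPM in E7, against 64.9, 63.2 and 60 CPM in C57. Zbp1, a sensor of Z-form nucleic acid that can trigger cell death, rose by 1.65 ± 0.276, 1.07 ± 0.27 and 2.70 ± 0.204. Tlr3, the endosomal receptor for double-stranded RNA, had 10.6, 10 and 11 CPM in E7 ears, against 11.7, 11.7 and 11 CPM in C57 ears, and 26.3, 21.7 and 20.1 CPM in E7 grafts at 28 dpg, against 17.4, 18.3 and 22.1 CPM in C57 grafts. These groups overlapped, and its log2 fold changes of -0.12 ± 0.112 and 0.26 ± 0.148 missed the threshold (adjusted p = 0.373 and 0.178, edgeR). At 14 dpg Tlr3 had 20.5, 20.5 and 24.6 CPM in E7 grafts, against 12.3, 13.7 and 14.4 CPM in C57 grafts, and rose by 0.71 ± 0.152.

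All 3 transcription factors rose in each setting. Stat2 had 266, 204 and 192 CPM in E7 grafts at 28 dpg, against 84.3, 85.8 and 93.8 CPM in C57 grafts. At 14 dpg it had 207, 182 and 274 CPM in E7 grafts, against 67.3, 99.6 and 90.6 CPM in C57 grafts. In ear it had 109, 111 and 120 CPM in E7, against 59.4, 59.6 and 54.1 CPM in C57, a 1.97-fold difference. Irf9, its partner, rose by 1.25 ± 0.106, 1.22 ± 0.106 and 1.16 ± 0.067, and so varied little between the settings. Irf7, the factor that amplifies interferon alpha production, rose by 2.27 ± 0.285, 1.31 ± 0.273 and 2.44 ± 0.111. Of the membrane proteins, Ifitm3, which hinders viral fusion, had 290, 271 and 262 CPM in E7 grafts at 28 dpg, against 146, 135 and 155 CPM in C57 grafts. Bst2 or tetherin, which holds budding virus at the cell surface, rose by 1.34, 0.95 and 1.10.

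Among the other induced genes were Apol9a and Apol9b, apolipoprotein L genes known in mice as interferon-induced. They had the largest changes of all members in grafts on both days, and in ear Apol9a led, followed by Oas3 and then Apol9b. Apol9a had 66.2, 49.3 and 38.1 CPM in E7 grafts at 28 dpg, against 3.13, 4.9 and 3.07 CPM in C57 grafts, a 14.2-fold difference. At 14 dpg it had 38.4, 36.3 and 61.6 CPM in E7 grafts, against 2.53, 3.65 and 4.42 CPM in C57 grafts, a 12.9-fold difference. In ear it had 29.4, 32.8 and 22.8 CPM in E7, against 0.818, 1.13 and 1.08 CPM in C57, a 27.6-fold difference (log2 4.79 ± 0.199, adjusted p = 1.06e-08, edgeR). Every E7 library stood above every C57 library of its setting. Apol9b rose 15.7-fold, 11.3-fold and 22.7-fold, but 57.5 and 51.4% of the transcript windows of Apol9a and Apol9b are shared between them, so they are not separate evidence. Ifi44 rose by 3.27 ± 0.331, 2.26 ± 0.308 and 3.19 ± 0.204 on the log2 scale. Samd9l, a translation-restricting antiviral factor, had 99.5, 85.3 and 91.9 CPM in E7 grafts at 28 dpg, against 50.5, 49 and 53 CPM in C57 grafts. Its call at 14 dpg (0.70 ± 0.205) ended without E7 replicate 3 (adjusted p = 0.103) or C57 replicate 1 or 2 (0.0802 and 0.0517). When only the E7 and C57 grafts of 14 dpg were fitted, the count was 32, and Ifit2, Ifit3, Zbp1, Irf7, Ifitm3 and Samd9l missed the threshold (adjusted p of 0.0614 to 0.0921). Trim30a had 39.2, 41.9 and 66.2 CPM in E7 grafts at 14 dpg, against 29.6, 41.2 and 49.5 CPM in C57 grafts, overlapping groups with 0.31 ± 0.198 (adjusted p = 0.248, edgeR). At 28 dpg and in ear Trim30a rose by 0.99 ± 0.199 and 1.05 ± 0.123.

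**Figure D2:**
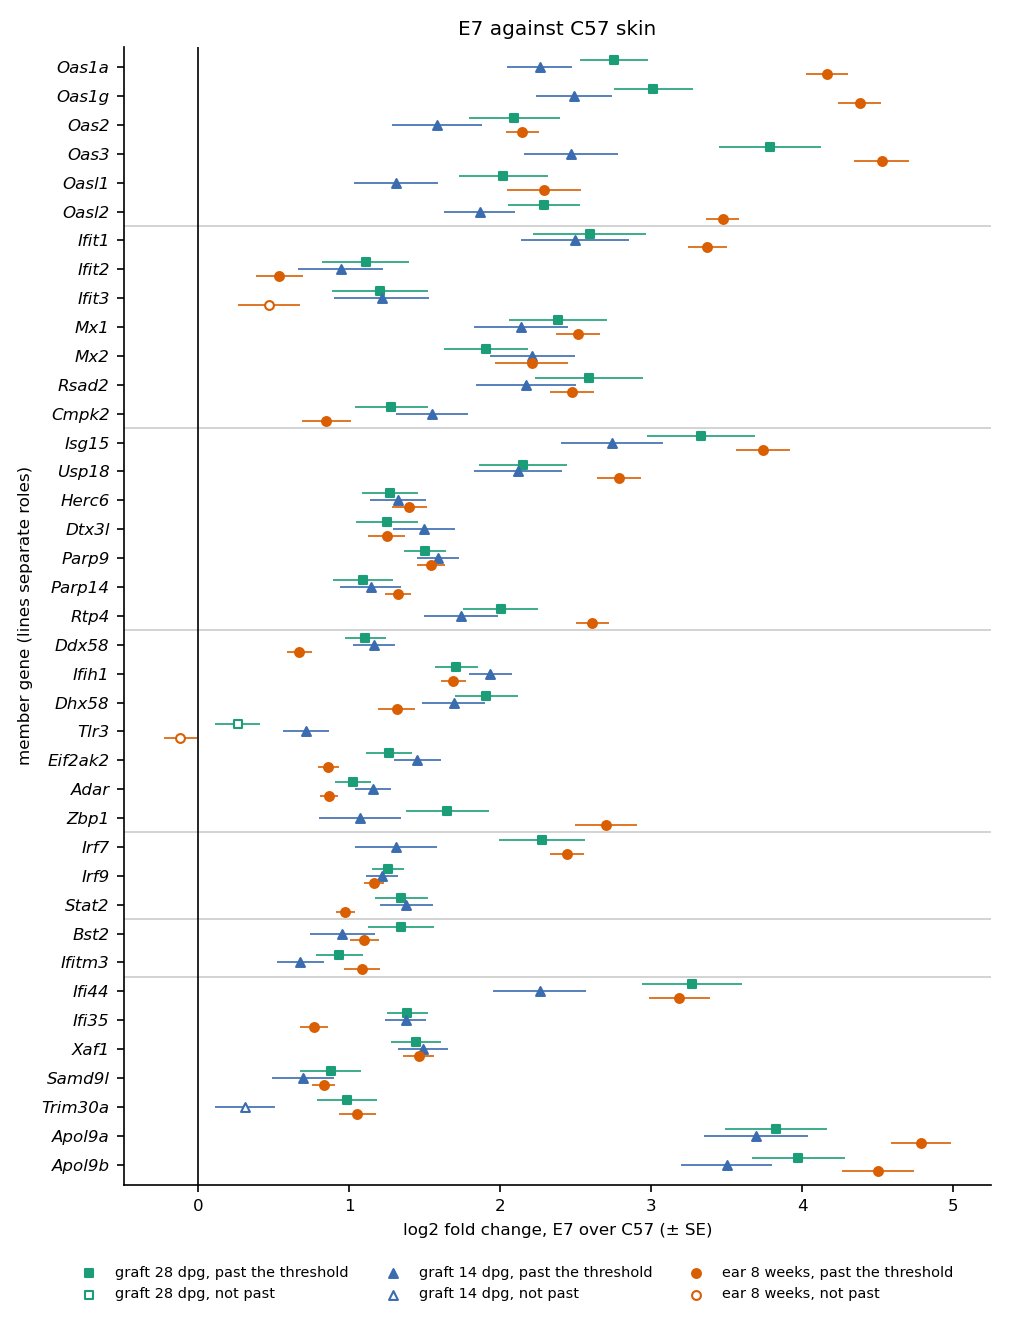
Points give the log2 fold change of E7 over C57 for each member (rows, by role) in grafts at 28 dpg (squares), grafts at 14 dpg (triangles) and ear (circles), with bars of 1 SE; open symbols missed the threshold. Apol9a and Apol9b lie at 3.5 to 4.79, with Oas3 between them in ear at 4.53, and the 4 open symbols are Tlr3 (28 dpg and ear), Trim30a (14 dpg) and Ifit3 (ear).

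Whether the effect of E7 differed between tissue states was tested as a contrast of contrasts in the fit of all 24 libraries. It was smaller in grafts at 28 dpg than in ear for 3 members and larger for 1, and smaller at 14 dpg than in ear for 6 and larger for 2. Of all 16612 genes, 5.13% had a negative and 2.29% a positive contrast, graft minus ear, at 28 dpg, and 8.61 and 4.02% at 14 dpg. The member counts at 28 dpg were near these shares. Oas1a was smaller on both days (-1.43 ± 0.334 and -1.91 ± 0.327), as were Oas1g (-1.38 and -1.90) and Oasl2 (-1.20 and -1.62). Without 1 library these counts ran from 1 to 3 smaller and 0 to 1 larger at 28 dpg, and from 4 to 9 smaller and 1 to 4 larger at 14 dpg. The C57 side differed as well: Oas1a had 12.8, 8.96 and 13.7 CPM in C57 grafts at 28 dpg, against 1.72, 1.28 and 1.76 CPM in C57 ears. Between the 2 days the effect of E7 differed for 0 of 39 members by edgeR and by DESeq2, with 5 at an unadjusted p below 0.05, and for 0.167% of all genes.

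Grafts carried more member transcript than ear even without E7. Against C57 ear, 35 of 39 members rose in C57 grafts at 28 dpg and 37 at 14 dpg, where 21.3 and 30.6% of all genes rose, with member medians of 1.19 and 1.79. Against E7 ear, 39 and 38 rose in E7 grafts, where 23.8 and 21.9% of all genes rose, with medians of 1.14 and 1.35. Oas1a (2.89 ± 0.271 and 3.46 ± 0.263), Zbp1 (2.74 and 3.16) and Ifi44 (2.65 and 3.62) were among the largest rises in C57 grafts, and Tlr3 had 0.23 ± 0.139 at 14 dpg, short of the threshold. Cell type markers moved too. Fibroblast markers summed to 18622 to 35215 CPM in C57 grafts at 28 dpg and 29920 to 43979 CPM at 14 dpg, against 5765 to 6925 CPM in C57 ears. Macrophage markers summed to 1201 to 1740 and 1123 to 2276 CPM in C57 grafts, against 446 to 522 CPM in C57 ears. All fibroblast and all endothelial markers rose in E7 grafts on both days against E7 ear, and all 4 leukocyte markers at 28 dpg. Their part in the member result was not tested, and flow cell and tissue cannot be told apart in these comparisons.

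The second question was how CD1dKOxE7 grafts differed from E7 grafts. The E7 transgene had lower CPM in CD1dKOxE7 grafts at 14 dpg, and its part in the member result was not tested. At 14 dpg 24 of 39 members rose in CD1dKOxE7 grafts against E7 grafts (edgeR quasi-likelihood test), where 15.1% of 16189 genes rose. The member median was 0.74 and that of all genes -0.03. All 39 differences were positive, 33 had an unadjusted p below 0.05, and 25 members had every CD1dKOxE7 library above every E7 library, as had 21.4% of all genes. Leaving out 1 library gave 18 to 33 members.

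Zbp1 differed most at 14 dpg, with 120, 149 and 178 CPM in CD1dKOxE7 grafts and 29.2, 38.3 and 59.9 CPM in E7 grafts, a 3.46-fold difference (log2 1.79 ± 0.257, adjusted p = 0.000126, edgeR). Trim30a had 151, 134 and 174 CPM in CD1dKOxE7 grafts, against 39.2, 41.9 and 66.2 CPM in E7 grafts (1.62 ± 0.195). Parp14 had 322, 352 and 484 CPM in CD1dKOxE7 grafts, against 122, 132 and 188 CPM in E7 grafts (1.38 ± 0.196). The lowest CD1dKOxE7 library was above the highest E7 library for each of the 3. Members with large E7 effects were not compared with each other here, so a passed or missed threshold does not separate them. Oas3 passed at 0.83 ± 0.278. Apol9a had 67.8, 60.8 and 85.8 CPM in CD1dKOxE7 grafts, against 38.4, 36.3 and 61.6 CPM in E7 grafts. These groups overlapped, with 0.64 ± 0.264 (adjusted p = 0.0859, edgeR). Isg15 had 147, 137 and 201 CPM in CD1dKOxE7 grafts, against 100, 84.4 and 146 CPM in E7 grafts, again overlapping (0.54 ± 0.3, adjusted p = 0.202). Across the 39 members, the change in E7 ear and the change in CD1dKOxE7 grafts at 14 dpg, which share no libraries, had a Pearson r of -0.05 and a Spearman rho of -0.04. These are descriptions over genes that are not independent.

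By role, 5 of 7 genes of the ISG15 and PARP class rose at 14 dpg, both membrane proteins, 5 of 7 other induced genes and 4 of 7 RNA-binding members. Of the IFIT, Mx and viperin class 3 of 7 rose and of the synthetase family 3 of 6. Ifit2 had 82.4, 94.9 and 136 CPM in CD1dKOxE7 grafts, against 32.5, 44.9 and 54.1 CPM in E7 grafts (1.23 ± 0.268), while Rsad2 (0.11 ± 0.299) and Mx2 (0.16 ± 0.244) missed the threshold. Stat2 (0.64 ± 0.169) and Irf7 (1.02 ± 0.265) rose, and Irf9 (0.23 ± 0.103) did not pass. Ifitm3 had 393, 410 and 459 CPM in CD1dKOxE7 grafts, against 200, 175 and 305 CPM in E7 grafts (0.88 ± 0.155). Tlr3 had 29.9, 31.4 and 42.6 CPM in CD1dKOxE7 grafts, against 20.5, 20.5 and 24.6 CPM in E7 grafts, a 1.56-fold rise. Calls of Oas3, Ifit3, Mx1, Rtp4, Ddx58, Dhx58 and Stat2 each ended without at least 1 library among E7 replicates 1 and 2 and CD1dKOxE7 replicates 2 and 3, with adjusted p of 0.0526 to 0.156.

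At 28 dpg 0 of 39 members passed the threshold between CD1dKOxE7 and E7 grafts by edgeR or by DESeq2, where 0.0741% of 16189 genes rose. All 39 differences were positive (median 0.30, range 0.06 to 0.70), 10 had an unadjusted p below 0.05, and 16 members had every CD1dKOxE7 library above every E7 library, as had 8.56% of all genes. Without replicate 3 of the CD1dKOxE7 grafts the count was again 0. Ifit2 had 57.2, 61.9 and 54.1 CPM in CD1dKOxE7 grafts and 33.5, 41.4 and 31 CPM in E7 grafts, groups that did not overlap, with 0.70 ± 0.273 (adjusted p = 0.305, edgeR). Cmpk2 had 37.1, 43.5 and 35.2 CPM in CD1dKOxE7 grafts and 24.2, 25 and 22.7 CPM in E7 grafts (0.68 ± 0.224, adjusted p = 0.219). Parp14 had 196, 187 and 243 CPM in CD1dKOxE7 grafts and 154, 128 and 127 CPM in E7 grafts (0.60 ± 0.194, adjusted p = 0.211). Against C57 grafts, all 39 members rose in CD1dKOxE7 grafts on both days (medians 1.96 at 28 dpg and 2.39 at 14 dpg), where 26.8 and 19.1% of all genes rose. Without replicate 3 the count at 28 dpg was 39 as well.

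**Figure D3:**
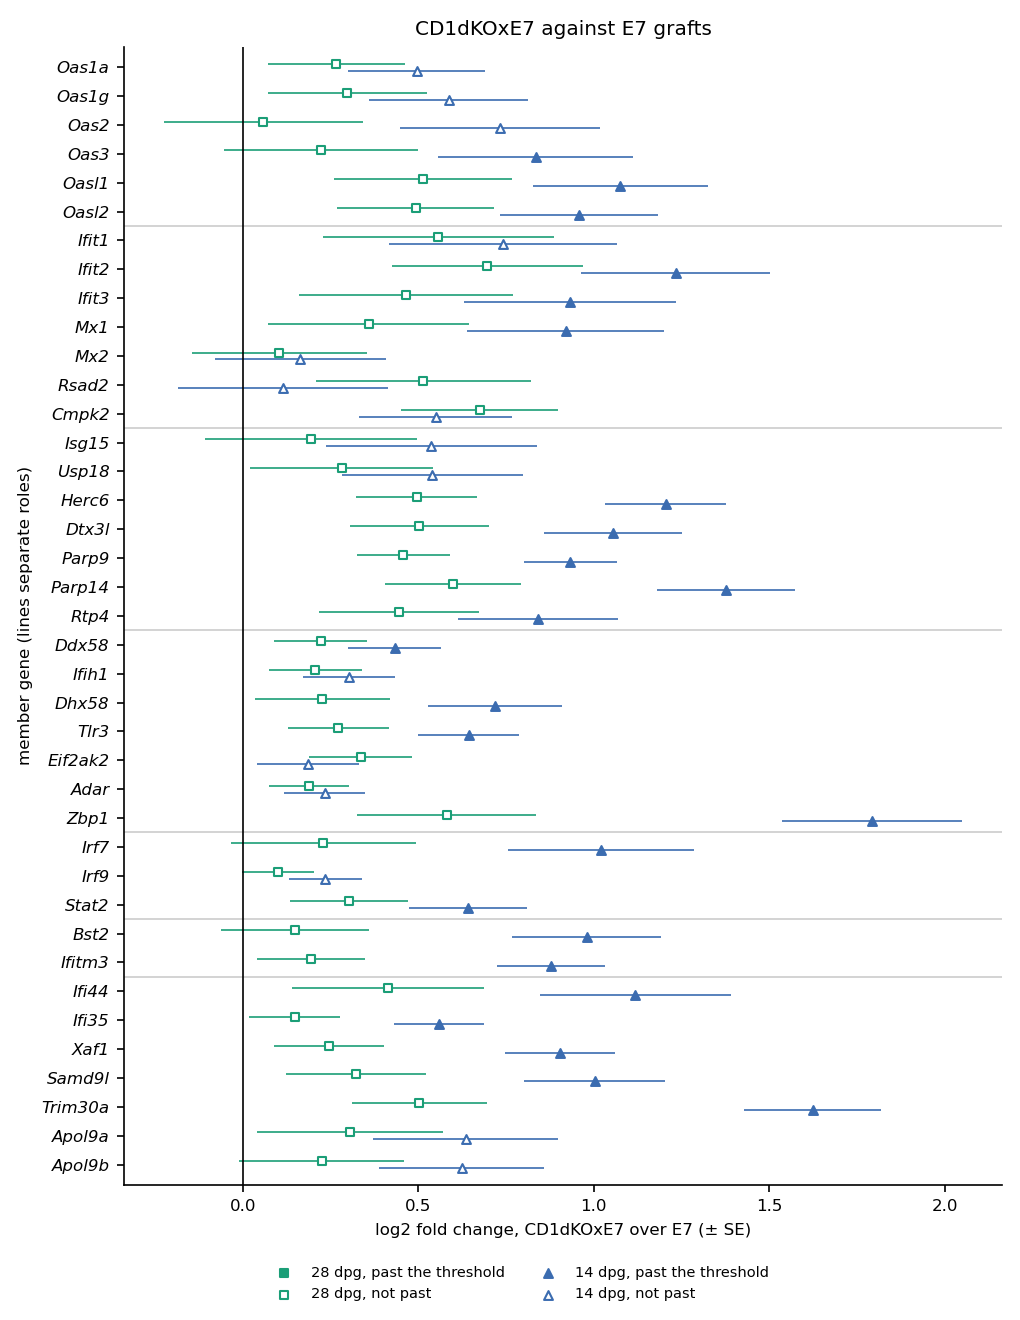
Points give the log2 fold change of CD1dKOxE7 over E7 grafts for each member (rows, by role) at 28 dpg (squares) and 14 dpg (triangles), with bars of 1 SE; filled symbols passed the threshold. At 14 dpg 24 triangles are filled, with Zbp1 farthest right at 1.79, and at 28 dpg every square is open, between 0.06 and 0.70.

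Between the 2 days, 12 of 39 members fell in CD1dKOxE7 grafts at 28 dpg against 14 dpg, where 11.8% of all genes fell, and all 39 differences were negative (median -0.45). They were Ifit2, Mx1, Herc6, Dtx3l, Parp9, Parp14, Ddx58, Zbp1, Bst2, Ifi35, Xaf1 and Trim30a, with changes from -1.04 ± 0.25 (Zbp1) to -0.39 ± 0.128 (Ifi35). Zbp1 had 59.4, 64 and 91.8 CPM at the later time, against 120, 149 and 178 CPM at the earlier one. Trim30a had 80.6, 85.4 and 102 CPM at the later time, against 151, 134 and 174 CPM at the earlier one. Every 28 dpg library was below every 14 dpg library for these and 22 members in all, as for 17.2% of all genes. The count was 10 without replicate 3 of the 28 dpg grafts, 6 without their replicate 1 and 5 without replicate 3 of the 14 dpg grafts. In E7 grafts 1 member fell, Eif2ak2 (-0.45 ± 0.148, adjusted p = 0.0465, edgeR), where 9.48% of all genes fell and 7.68% rose. That call ended without any 1 of the 6 libraries compared (0.0521 to 0.184). In C57 grafts Irf7 (-0.93 ± 0.282), Oas3 (-1.09 ± 0.36) and Rsad2 (-1.14 ± 0.37) fell and Tlr3 (0.52 ± 0.153) rose, where 14.2% of all genes fell and 8.4% rose. The number that fell was 8 without C57 replicate 1 at 14 dpg and 0 without replicate 2 or 3 at 14 dpg or replicate 1 or 2 at 28 dpg.

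The CD1d difference itself was smaller at 28 dpg than at 14 dpg for 2 of 39 members. They were Trim30a (-1.12 ± 0.272, adjusted p = 0.0157, edgeR) and Zbp1 (-1.21 ± 0.359, adjusted p = 0.0391). This contrast was negative at the threshold for 6.31% of all genes, so the member count was near that share. The median over the members was -0.46. Without replicate 3 of the CD1dKOxE7 grafts at 28 dpg the count was 4, with Trim30a at -1.22 (adjusted p = 0.00768) and Zbp1 at -1.42 (0.0128), and without E7 replicate 3 at 14 dpg it was 9. Zbp1 lost its call in 9 of the settings that left out a library, with adjusted p up to 0.106, and Trim30a in none.

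**Figure D4:**
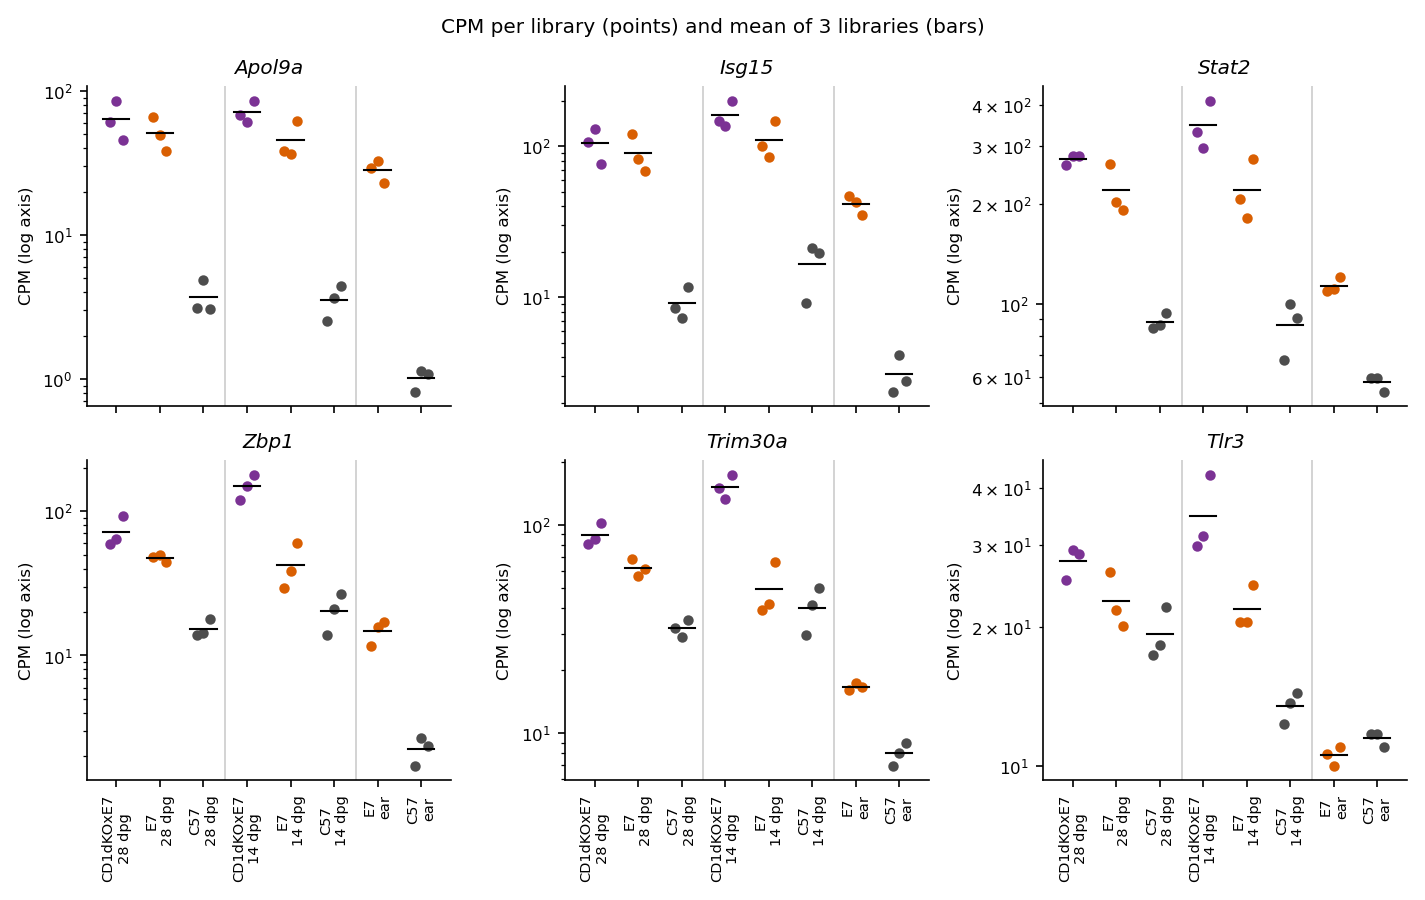
Each panel gives the CPM of 1 member on a log axis, with a point per library and a bar at the mean of 3, for CD1dKOxE7 (purple), E7 (orange) and C57 (grey) skin. Apol9a and Isg15 separate E7 from C57 skin in every setting, whereas Zbp1 and Trim30a are highest in CD1dKOxE7 grafts at 14 dpg, at 120 to 178 and 134 to 174 CPM, and Tlr3 in ear stays at 10 to 11.7 CPM.

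Interferon transcripts were scarce. The 20 type I and type III interferon genes had at most 7 counts in any library (Ifnz), and the 14 interferon alpha genes had 16 counts over all 24 libraries. Ifnb1 summed to 5, 4 and 1 counts in CD1dKOxE7, E7 and C57 grafts at 28 dpg, to 3, 1 and 0 at 14 dpg, and to 3 and 0 in E7 and C57 ears. A change in these genes was not detectable at this depth. Ifng, the type II interferon that T cells and natural killer cells make, had 72, 76 and 89 counts in CD1dKOxE7 grafts at 14 dpg, against 5, 3 and 11 counts in E7 grafts. At 28 dpg it had 13, 13 and 36 counts in CD1dKOxE7 grafts, with the 36 in replicate 3, against 6, 4 and 3 counts in E7 grafts. C57 grafts had 1, 0 and 0 counts at 28 dpg and 4, 0 and 1 at 14 dpg. Ifng passed the low-count filter of the graft fit through the CD1dKOxE7 grafts, so its counts are given and no call on it between graft groups is read. E7 ears had 1, 2 and 6 counts and C57 ears 0, 1 and 1, too few to be tested. Without CD1dKOxE7 replicate 3, the Ifng difference from E7 grafts at 28 dpg was 1.43 ± 0.621 on the log2 scale, against 2.17 with it.

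Receptor and kinase genes of the pathway moved both ways under E7. Of 9, 1 rose at 28 dpg, 3 fell at 14 dpg, and 1 rose and 4 fell in ear. Of all genes called, 58.4, 52.3 and 50% were higher in E7 skin in that order and the rest lower, so falls were common among all genes too. Ifnar1 fell in ear (-0.28 ± 0.075) and at 14 dpg (-0.47 ± 0.122), and had -0.22 ± 0.122 at 28 dpg. In CD1dKOxE7 grafts at 14 dpg 8 of the 9 rose against E7 grafts, led by Jak2 (1.38 ± 0.135), Ifngr2 (0.99 ± 0.109), Ifngr1 (1.26 ± 0.156) and Ifnar1 (0.83 ± 0.122). Among transcription factors outside the members, Irf8 (2.13 ± 0.221) and Irf1 (2.28 ± 0.302), genes well known as targets of interferon gamma, rose in CD1dKOxE7 grafts at 14 dpg. Under E7, Irf1 and Irf8 rose in ear (1.10 ± 0.157 and 0.75 ± 0.144). In grafts Irf1 had 0.53 ± 0.297 at 28 dpg and 0.73 ± 0.302 at 14 dpg, and Irf8 0.39 ± 0.228 and 0.24 ± 0.229, short of the threshold. Stat3, of the same list, rose under E7 in ear (0.673 ± 0.083) and at 28 dpg (0.415 ± 0.087). Irf5 and Irf2 rose in ear and not at 28 dpg, and Irf3 passed in neither.

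Of 12 nucleic acid sensors and adaptors outside the members, 6 rose under E7 at 28 dpg, 4 at 14 dpg and 6 in ear, while Tlr7 fell at 14 dpg and Mavs and Tlr7 fell in ear. Mb21d1, which encodes the DNA sensor cGAS, rose by 1.53 ± 0.139, 1.70 ± 0.137 and 1.97 ± 0.099, and Aim2 by 0.75, 1.02 and 2.51. In CD1dKOxE7 grafts at 14 dpg 9 of the 12 rose against E7 grafts and Mb21d1 alone fell, with 27.5, 28.6 and 32.2 CPM, against 34.9, 40.8 and 42.2 CPM in E7 grafts. Of 9 negative regulators, 7, 6 and 8 rose under E7 at 28 dpg, 14 dpg and in ear, where Ptpn6 fell, with Trex1, a nuclease that limits cytosolic DNA, at 1.14 ± 0.166, 1.07 ± 0.166 and 1.11 ± 0.107. Of other interferon-induced genes, 29 of 49, 27 of 49 and 31 of 47 rose under E7, among them Slfn9 (3.02, 2.11 and 3.47), while Ifitm2 fell at 14 dpg and Ifitm2, Parp11 and Tdrd7 fell in ear. Cxcl9, a chemokine known as an interferon gamma target, rose in ear (2.74 ± 0.405) and at 14 dpg (2.66 ± 0.603). At 28 dpg it had 1.227 ± 0.603, short of the threshold (adjusted p = 0.128, edgeR). In CD1dKOxE7 grafts at 14 dpg 40 of 49 rose, and at 28 dpg Cxcl9 alone, with 106, 68.2 and 325 CPM, against 32.3, 16.8 and 12.9 CPM in E7 grafts. The 325 CPM was in replicate 3, without which Cxcl9 rose by 2.07 ± 0.43 (adjusted p = 0.0342, edgeR), against 2.98 ± 0.552 with it (0.047).

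Marker genes of leukocytes moved with the members in CD1dKOxE7 grafts at 14 dpg. All 7 T cell markers rose against E7 grafts, with summed levels of 276 to 332 CPM in CD1dKOxE7 grafts and 30 to 45.9 CPM in E7 grafts. Leukocyte markers (4 of 4, 1079 to 1278 against 246 to 327 CPM), macrophage markers (7 of 7, 1786 to 2303 against 504 to 836 CPM) and neutrophil markers (3 of 4, 1216 to 2376 against 69.3 to 294 CPM) rose too. Of 6 genes listed for plasmacytoid dendritic cells 4 rose, with overlapping sums of 594 to 932 CPM in CD1dKOxE7 grafts and 745 to 970 CPM in E7 grafts. The sum in E7 grafts exceeded that of the leukocyte markers, so this list is not read as that cell type. The part of the leukocyte, T cell, macrophage and neutrophil markers in the member result was not tested. At 28 dpg T cell markers summed to 49 to 126 CPM in CD1dKOxE7 grafts, with the 126 CPM in replicate 3, and 31.7 to 44.3 CPM in E7 grafts.

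In the comparisons of E7 with C57, T cell markers summed to 31.7 to 44.3 CPM in E7 grafts and 37.4 to 38.4 CPM in C57 grafts at 28 dpg, and to 32.3 to 49.2 CPM in E7 ears and 33 to 37.7 CPM in C57 ears. Single T cell markers moved both ways in ear, where Cd8a (3.67 ± 0.543), Trac (2.35 ± 0.257) and Cd4 (0.75 ± 0.28) rose and Cd3e (-0.71 ± 0.184) and Cd3g (-0.62 ± 0.165) fell. Trac also rose in E7 grafts on both days (1.16 ± 0.392 at 28 dpg and 1.26 ± 0.371 at 14 dpg). Macrophage markers fell in 5 of 7 cases in E7 grafts at 14 dpg (504 to 836 CPM, against 1123 to 2276 CPM in C57 grafts). Neutrophil markers rose in ear (4 of 4 tested, 112 to 358 against 6.98 to 16 CPM). Fibroblast markers fell in ear (6 of 6, 1671 to 3433 against 5765 to 6925 CPM) and, for 4 and 5 of 6, in grafts at 28 and 14 dpg. Endothelial, skeletal muscle and adipocyte markers fell in ear as well, 5 of 5 in each list, and endothelial markers in 5 of 5 at 28 dpg. The 6 cell cycle genes rose in all 3 settings. Of all genes called, 58.4% at 28 dpg, 52.3% at 14 dpg and 50% in ear were higher in E7 skin, and the rest were lower. The part of these marker shifts in the member result was not tested.

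**Figure D5:**
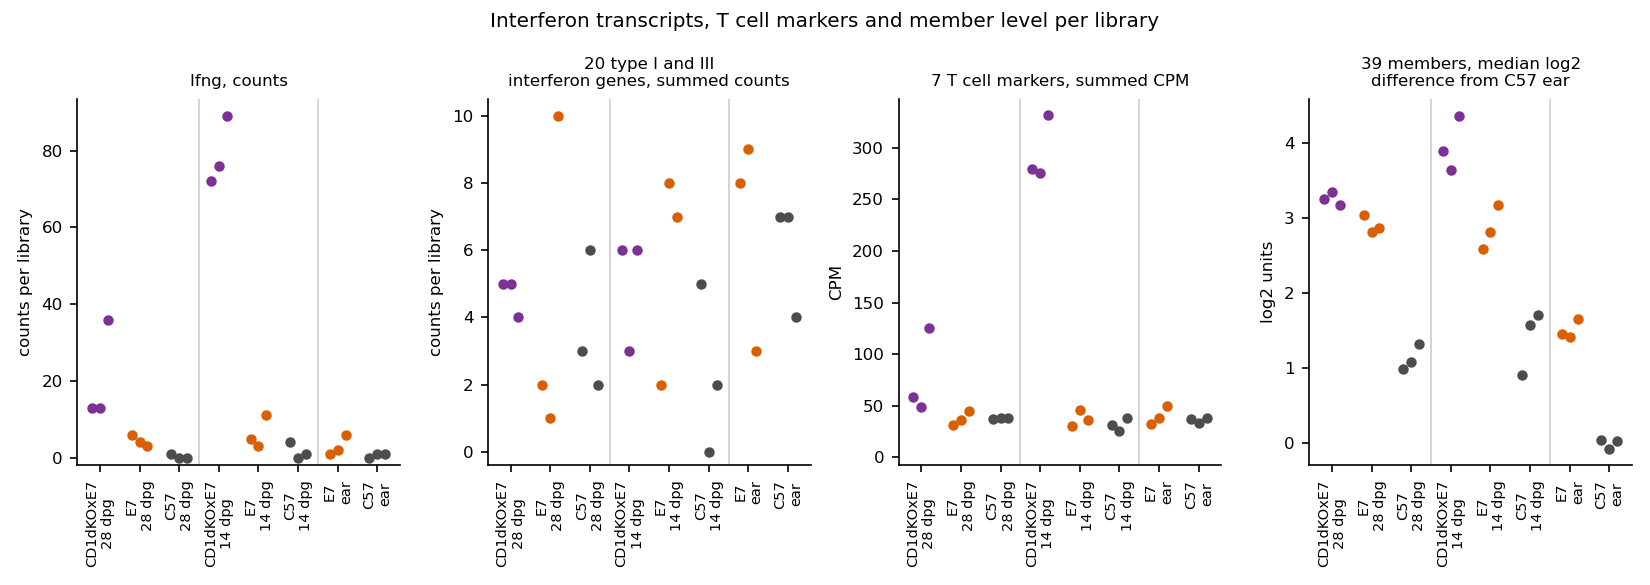
Points are libraries of CD1dKOxE7 (purple), E7 (orange) and C57 (grey) skin; the panels give Ifng counts, summed counts of 20 type I and III interferon genes, summed CPM of 7 T cell markers and the median log2 difference of the 39 members from C57 ear. Ifng and T cell markers are highest in CD1dKOxE7 grafts at 14 dpg (72 to 89 counts and 276 to 332 CPM), as is the member median (3.64 to 4.37). That median is 2.59 to 3.17 in E7 grafts, 1.41 to 1.66 in E7 ears and 0.91 to 1.71 in C57 grafts.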

How the data were processed

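RNA-seq counts of 24 libraries were analysed as the authors deposited them, as whole read counts per gene and library with no normalization. Per the labels' protocols, RNA was extracted with Trizol and RNeasy columns and libraries were made with the TruSeq RNA v2 kit. Per the submitters' processing notes, bcl2fastq 1.8.4, FastQC and Trimmomatic were used and the build was mm10. Aligner, counter, annotation and strand: not given in the sources used here. Counts of overlapping opposite-strand genes and of near-identical genes are therefore uncertain. Rows were joined by Entrez identifier; 25275 of 27180 matched RefSeq symbols, and 1904 rows with 0.826 to 1.556% of the counts did not.

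Genes were tested with edgeR 4.0.16 (R 4.3.3, limma 3.58.1): filterByExpr (minimum count 10, minimum total 15), TMM scaling, robust quasi-likelihood F tests and Benjamini-Hochberg adjustment over all genes, threshold 0.05. The 6 ear libraries (15720 genes), the 18 graft libraries (16189 genes) and, for graft against ear, all 24 libraries (16612 genes) were fitted. The SE of a log2 fold change is its size over the square root of F. DESeq2 1.42.0, other scalings, no filter, a replicate block and leaving out each library were alternatives. The script was tested on simulated counts. Figures used Python 3.11.15, numpy 2.4.6, pandas 2.3.3 and matplotlib 3.10.9. Counting floors of 3 counts cover counting error only.

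Values in every library are given for the member of each role class with the highest mean CPM. They are also given for the 3 members with the largest rise in a main comparison. Further, they are given for members with a negative change there (only Tlr3 in ear) and for members whose call differed between settings. Of other lists, genes with the smallest adjusted p in a comparison are named, and some are followed into comparisons where others of their list had a smaller one. One gene outside the members is not reported here. Members and lists were chosen with earlier results of these data known. Replicate numbers were shared between graft groups, but same-numbered libraries deviated together (every correlation above 0.1) only between CD1dKOxE7 and C57 grafts at 14 dpg (0.107, 0.117 and 0.186), which the labels do not pair.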

Additional observations from a re-analysis of the deposited data

Results flagged for a closer look

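The effect of E7 on 8 members differed between grafts at 14 dpg and ear (edgeR, adjusted p of 0.000659 to 0.0433). It was tested by the contrast of the 2 effects in the fit of all 24 libraries. That contrast, graft minus ear, was negative for 8.61% of all genes and positive for 4.02%. The difference of log2 fold changes, graft minus ear, was -1.91 for Oas1a, -1.9 for Oas1g, -2.07 for Oas3, -1.62 for Oasl2, -1.64 for Zbp1 and -1.15 for Irf7. It was 0.82 for Tlr3 and 0.59 for Ifi35. At 28 dpg it passed for 4 members: -1.43 for Oas1a, -1.38 for Oas1g, -1.2 for Oasl2 and 0.6 for Ifi35 (edgeR, adjusted p of 0.0129 to 0.045). Of all genes, 5.13% had a negative and 2.29% a positive contrast there, so the member counts were near these shares. At 14 dpg the call of Irf7 ended under 13 alternatives, that of Ifi35 under 5 and that of Zbp1 under 1. At 28 dpg the call of Oas1g ended under 11, that of Ifi35 under 9 and that of Oasl2 under 8, and Oas1a kept its call under every alternative run.

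The difference between CD1dKOxE7 and E7 grafts was smaller at 28 dpg than at 14 dpg for 2 of 39 members. The contrast of the 2 effects was -1.21 for Zbp1 and -1.12 for Trim30a on the log2 scale (edgeR, adjusted p = 0.0391 and 0.0157). It was negative at the threshold for 6.31% of all genes, so the member count was near that share. The call of Zbp1 ended under 10 alternatives. All 7 T cell markers also fell in CD1dKOxE7 grafts at 28 dpg against 14 dpg, and Ifng counts were lower. Their part was not tested.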

How the results depend on the processing

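Of 450 counts of rising or falling members recomputed under alternatives, 386 stayed within 1.5 times the reported count. These included 166 of 166 in the 7 comparisons between donors on the same day or in ear. In those 7 no member fell under any alternative, so their falling counts match at 0. Rising counts of CD1dKOxE7 against E7 at 28 dpg match at 0 as well. Of 4509 recomputed values of single members, 0 changed sign among called values and 188 lost their call. Leaving out 1 library gave 36 to 38 rising members in ear, 36 to 38 for E7 against C57 at 14 dpg and 18 to 33 for CD1dKOxE7 against E7 at 14 dpg. For 28 dpg against 14 dpg it gave 0 to 1 rising and 0 to 8 falling in C57 grafts, 0 to 4 rising (4 without E7 replicate 3 at 14 dpg) and 0 falling in E7 grafts, and 5 to 13 falling in CD1dKOxE7 grafts. The CD1d difference between days gave 1 to 9 falling members. The E7 effect against ear gave 1 to 4 rising and 4 to 9 falling at 14 dpg, and 0 to 1 rising and 1 to 3 falling at 28 dpg.

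The number of members falling in C57 grafts was 1 with upper quartile scaling, 0 with no filter, 5 with DESeq2 and 1 when only the compared groups were fitted; in E7 grafts it was 0 with upper quartile scaling, no filter or the compared groups alone. The CD1d difference between days had 1 falling member with no filter and 7 with DESeq2. The E7 effect against ear had 4 rising members at 14 dpg with upper quartile scaling and with DESeq2, and 1 falling at 28 dpg with no filter. The causes were not tested. Upper quartile scaling moved the median of all genes in ear to -0.12, where the members' median was 1.42 and 37 rose, and moved that of the E7 effect at 14 dpg against ear to 0.06. It put the share of higher calls at 39.1% (50% reported) in ear, 47.9% (58.4%) for E7 and 43.9% (54.2%) for CD1dKOxE7 against C57 at 28 dpg, 52.2% (37.1%) for C57 between days, and 55.2% (31.8%) and 49% (30.9%) for the E7 effect at 14 and 28 dpg against ear.

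With the replicate number as a block, the CD1d difference between days had 7 falling members, against 2, CD1dKOxE7 against E7 at 14 dpg had 25 rising, against 24, and CD1dKOxE7 against C57 at 14 dpg had 39 either way; the libraries share only a number. With 3 libraries a group and totals of 6550011 to 13814448 counts, changes in the type I and III interferon genes were beyond what this depth can show. Cxcl9 and Ifng without CD1dKOxE7 replicate 3 at 28 dpg were computed after seeing the data.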
